A study of Mus musculus with 65 samples.

Results

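The genes that encode the core splicing factors and the heterogeneous nuclear ribonucleoproteins (hnRNPs) of the mouse were followed at their transcription start sites (TSSs) on newly replicated DNA. They were taken by symbol: Srsf genes with a number, Hnrnp genes, Sf3a and Sf3b genes with a number, and Snrp genes other than Snrpn. The rule found 52 protein-coding genes in mm10, and 47 of them had a deposited TSS region within 1000 bp of the gene start. These 47 were 11 SR protein genes, 16 of 21 hnRNP genes, 9 genes of the SF3 subunits and 11 genes of small nuclear ribonucleoprotein (snRNP) proteins, out of 31995 TSS regions and 18266 protein-coding genes with a TSS. Hnrnpa1l2-ps2, Hnrnph1, Hnrnpm, Hnrnpu and Hnrnpul1 had no TSS region within reach and were not analysed here. Hnrnpa3 alone had a pair of TSS regions, of which the one with the higher mean over all libraries was used.

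Splicing removes introns from nuclear transcripts. The spliceosome is built from snRNPs, small nuclear RNAs wrapped in a ring of Sm proteins, and the SF3 complexes of the U2 snRNP clamp it to the branch point of the intron. SR proteins bind exons and mostly promote their inclusion, hnRNPs coat the transcript and often repress splice sites, and both sets are made at high levels in dividing cells, embryonic stem cells included.

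The study used E14TG2a mouse embryonic stem cells, grown on gelatin in serum with LIF, and repli-ATAC-seq, in which DNA replicated during a 10 min pulse of the thymidine analogue EdU is tagged by Tn5 transposase where chromatin is open and then captured. In the inhibitor experiment cells were given triptolide, DRB or DMSO (the solvent control) for 2 h before the pulse, and were harvested after the pulse (nascent) or after a chase of 2 h in thymidine, with 3 libraries in each group. Triptolide blocks XPB, a helicase of the initiation factor TFIIH, and DRB inhibits CDK9, the kinase that releases RNA polymerase II from its pause near the promoter. The labels state neither the doses of the inhibitors nor whether these were present in the chase. Each sample gave a captured EdU library and an unbound library of the DNA that was not captured, which is mostly not newly replicated, so the 12 groups are triptolide, DRB and DMSO at 2 h and nascent in each fraction. A second experiment, in which EdU-labelled Drosophila S2 cells were added, had 2 libraries at 2 h and 2 nascent libraries without a drug, and peak lists came from cells without a drug: nascent, at 3 times of chase (30 min, 1 h and 2 h) and in steady state. Whether the libraries of a group are separate cultures is not stated in the labels. All p-values below therefore reflect spread among these libraries only, which may be technical.

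For each gene the value is the RPM, the reads in the 1 kb window nearest its TSS given per 1000000 reads of the library. The EdU libraries held about 1300000 to 5550000 reads and the unbound libraries about 2350000 to 14360000. A median member therefore had 3 to 7 reads in the nascent triptolide libraries, 3 to 6 in nascent DRB and 5 to 12 in nascent DMSO. After the chase it had 7 to 9 reads with triptolide, 11 to 21 with DRB and 17 to 24 with DMSO. RPM is relative, so a gain or loss shared by a whole library is not seen. Each library pools many cells, so fewer cells that carry an open promoter and less openness per cell cannot be told apart. As a check of the cell type, all 8 embryonic stem cell marker promoters (Pou5f1, Sox2 and Nanog among them) had a steady-state peak, at 4.98 to 13.4 RPM in the unbound DMSO libraries. A steady-state peak was also present at 5 of 5 fibroblast (0.544 to 7.56 RPM) and 3 of 3 neural marker promoters (4.95 to 7.09 RPM). The same held for 3 of 3 trophectoderm (0.729 to 6.63 RPM) and 3 of 4 primitive endoderm marker promoters (0.229 to 4.81 RPM). Gata4, at 0.229 RPM, had no peak. The fibroblast, neural and trophectoderm ranges overlap that of the stem cell markers, so this check does not separate these cell types. The part of other cells in the results was not tested.

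Promoter sequence was matched for 34 of the 47 genes, from 250 bases before to 50 bases after a RefSeq start on GRCm38.p6. This was the RefSeq start of the gene nearest the TSS used, within 250 bp of it. It need not be the gene start: the TSS used lies 874 bp from the gene start for Srsf1 and 489 bp for Hnrnpa1. Capitals mark either CCGGAAG, the core of ETS-type sites, or CCAAT, the box bound by NF-Y, each searched on both strands. The 8 promoters shown are those of genes described below, chosen to show each role group and promoters with many, few or no matches.
Srsf5, chr12:80945249-80945548, plus strand: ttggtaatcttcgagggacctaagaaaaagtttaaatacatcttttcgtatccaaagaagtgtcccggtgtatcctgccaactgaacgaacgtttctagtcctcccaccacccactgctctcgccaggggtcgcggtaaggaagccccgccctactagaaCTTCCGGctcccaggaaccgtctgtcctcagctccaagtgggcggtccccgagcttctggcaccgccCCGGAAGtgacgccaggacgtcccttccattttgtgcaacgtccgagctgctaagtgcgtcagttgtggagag
Srsf1, chr11:88047123-88047422, plus strand: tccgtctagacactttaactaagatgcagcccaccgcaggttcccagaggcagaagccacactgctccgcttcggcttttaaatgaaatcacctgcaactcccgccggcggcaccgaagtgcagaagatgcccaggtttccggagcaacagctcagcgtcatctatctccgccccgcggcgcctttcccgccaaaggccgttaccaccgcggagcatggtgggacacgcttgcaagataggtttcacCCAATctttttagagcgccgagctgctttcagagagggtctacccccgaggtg
Hnrnpa1, chr15:103240147-103240446, plus strand: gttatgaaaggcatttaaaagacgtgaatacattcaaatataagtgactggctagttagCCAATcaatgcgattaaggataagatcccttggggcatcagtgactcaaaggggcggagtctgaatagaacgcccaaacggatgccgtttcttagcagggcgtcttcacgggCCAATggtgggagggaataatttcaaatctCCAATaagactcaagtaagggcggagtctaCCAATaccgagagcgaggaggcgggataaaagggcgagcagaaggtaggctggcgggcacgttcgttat
Hnrnpa2b1, chr6:51469845-51470144, minus strand: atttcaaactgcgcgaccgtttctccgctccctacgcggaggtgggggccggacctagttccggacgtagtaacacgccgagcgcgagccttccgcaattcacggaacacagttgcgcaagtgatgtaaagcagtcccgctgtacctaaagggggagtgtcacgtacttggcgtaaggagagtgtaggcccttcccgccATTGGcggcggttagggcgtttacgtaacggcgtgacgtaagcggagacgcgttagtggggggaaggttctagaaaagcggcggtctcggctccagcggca
Hnrnpc, chr14:52103972-52104271, minus strand: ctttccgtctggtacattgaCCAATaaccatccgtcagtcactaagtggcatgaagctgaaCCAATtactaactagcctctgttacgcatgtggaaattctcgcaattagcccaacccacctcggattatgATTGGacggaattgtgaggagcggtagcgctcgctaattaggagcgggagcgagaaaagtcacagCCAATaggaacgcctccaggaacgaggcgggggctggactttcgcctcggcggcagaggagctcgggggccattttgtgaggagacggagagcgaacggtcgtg
Sf3b6, chr12:4817358-4817657, plus strand: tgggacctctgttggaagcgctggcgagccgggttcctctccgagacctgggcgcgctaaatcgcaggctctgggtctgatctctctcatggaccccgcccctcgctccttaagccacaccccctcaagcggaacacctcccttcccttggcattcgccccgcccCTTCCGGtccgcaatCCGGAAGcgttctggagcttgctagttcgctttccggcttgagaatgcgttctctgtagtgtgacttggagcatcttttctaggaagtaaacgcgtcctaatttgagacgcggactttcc
Sf3b1, chr1:55027429-55027728, minus strand: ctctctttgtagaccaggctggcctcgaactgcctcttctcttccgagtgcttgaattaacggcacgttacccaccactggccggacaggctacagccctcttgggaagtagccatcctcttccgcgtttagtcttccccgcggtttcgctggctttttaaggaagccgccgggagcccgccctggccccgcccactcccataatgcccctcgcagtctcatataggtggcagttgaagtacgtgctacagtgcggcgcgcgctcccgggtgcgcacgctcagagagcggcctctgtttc
Snrpe, chr1:133610231-133610530, minus strand: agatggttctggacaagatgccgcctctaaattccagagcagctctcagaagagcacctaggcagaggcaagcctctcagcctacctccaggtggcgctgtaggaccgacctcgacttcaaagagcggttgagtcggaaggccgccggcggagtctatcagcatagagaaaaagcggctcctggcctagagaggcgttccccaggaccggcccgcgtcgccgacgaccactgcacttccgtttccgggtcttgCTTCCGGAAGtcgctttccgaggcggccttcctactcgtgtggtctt

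The ETS core stood in 15 of the 34 splicing promoters (44.1%), against 12.7% of 13374 promoters of the same length. It was found in 5 of 6 SF3 promoters, 4 of 9 SR, 4 of 9 snRNP and 2 of 10 hnRNP promoters. Srsf5 and Sf3b6 each hold it at a pair of places, and the capitals in the Snrpe promoter are a palindrome in which matches on both strands overlap. CCAAT stood in 16 of the 34 (47.1%, against 39.5%), and in 8 of 10 hnRNP promoters, 3 of 9 SR, 3 of 9 snRNP and 2 of 6 SF3 promoters. Hnrnpa1 and Hnrnpc carry 4 CCAAT boxes each, Hnrnpa2b1 and Srsf1 carry 1, and the Sf3b1 promoter has neither motif. No motif share given here or below was tested, and the 13374 promoters were not matched for activity or base composition.

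Matches to the ETS core lay at a median of 70 bases before this RefSeq start and those to CCAAT at 82 bases before it. Both motifs occurred together in 3 promoters, at least 1 of them in 28, and neither in 6, and no ETS match overlapped a CCAAT match. GGGCGG, the box bound by SP and KLF factors, was present in 23 of the 34 (67.6%, against 48.4%), and overlapped an ETS match once and a CCAAT match once. TATAAA was present in 5 (14.7%, against 13.7%). Splicing promoters had a median GC content of 59.5%, against 56.7% in all promoters, and a median of 24 CpG dinucleotides, against 14. Among the matched genes, the median triptolide difference described below was -1.31 with and -1.24 without the ETS core at 2 h, and -0.87 with and -0.82 without it on nascent DNA (log2 scale). The DRB difference on nascent EdU DNA had medians of -0.61 with and -0.30 without it, the triptolide difference in gain -0.11 with and -0.56 without it, and the nascent triptolide difference in EdU minus that in unbound -0.87 with and -0.50 without it. Other motifs gave gaps as well. The triptolide difference in gain had medians of -0.10 with and -0.56 without GGGCGG, and -0.56 with and -0.10 without CCAAT. The nascent difference in EdU minus unbound had -0.81 with and -0.50 without GGGCGG, and -0.58 with and -0.735 without CCAAT. For DRB on nascent EdU DNA they were -0.44 with and -0.38 without GGGCGG, and -0.33 with and -0.58 without CCAAT. None of these medians was tested.

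Most of these promoters were open on both old and new chromatin. Without a drug, 42 of the 47 (89.4%) had a nascent peak within 1000 bp, where 49.2% of all coding genes did. The count was 44 (93.6%) at 30 min and at 1 h, 46 (97.9%) at 2 h and 47 in the steady-state list. Of coding genes, 57.4% had a peak in the 30 min list, 61.2% in that of 1 h, 67.1% in that of 2 h and 72.5% in the steady-state one, in lists that grow from 47341 to 166636 peaks. Outside these families, 42 of 48 other splicing regulators (87.5%) and 41 of 56 other spliceosome genes (73.2%) also had a nascent peak.

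Every SF3 promoter was in the nascent list, with 10 of 11 SR, 14 of 16 hnRNP and 9 of 11 snRNP promoters. Those that appeared later were Hnrnpf and Hnrnph2, which bind runs of G, and Snrpf, an Sm ring protein, all at 30 min, and Srsf9 at 1 h. Snrpb, the gene of the Sm B protein, had a peak at steady state and in none of the earlier lists. Each list was made by the authors over a whole group, so it carries no replicate error.

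Peaks of RNA polymerase II phosphorylated at serine 5 (S5P), the form found at promoters, lay within 1000 bp of 36 of the 47 TSSs (76.6%), where 25.8% of coding genes had one. These peaks came from chromatin immunoprecipitation without EdU capture (2 libraries), and the labels give no EdU pulse and no drug. They do not show polymerase on newly replicated DNA as such. By role these were 14 of 16 hnRNP, 9 of 11 SR, 8 of 11 snRNP and 5 of 9 SF3 genes. The 11 genes without such a peak were Hnrnpf, Hnrnph2, Sf3a1, Sf3a3, Sf3b2, Sf3b4, Snrpb2, Snrpc, Snrpd1, Srsf9 and Srsf12. Outside these families, 39 of 48 other splicing regulators (81.2%) and 32 of 56 other spliceosome genes (57.1%) had an S5P peak.

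**Figure D1:**
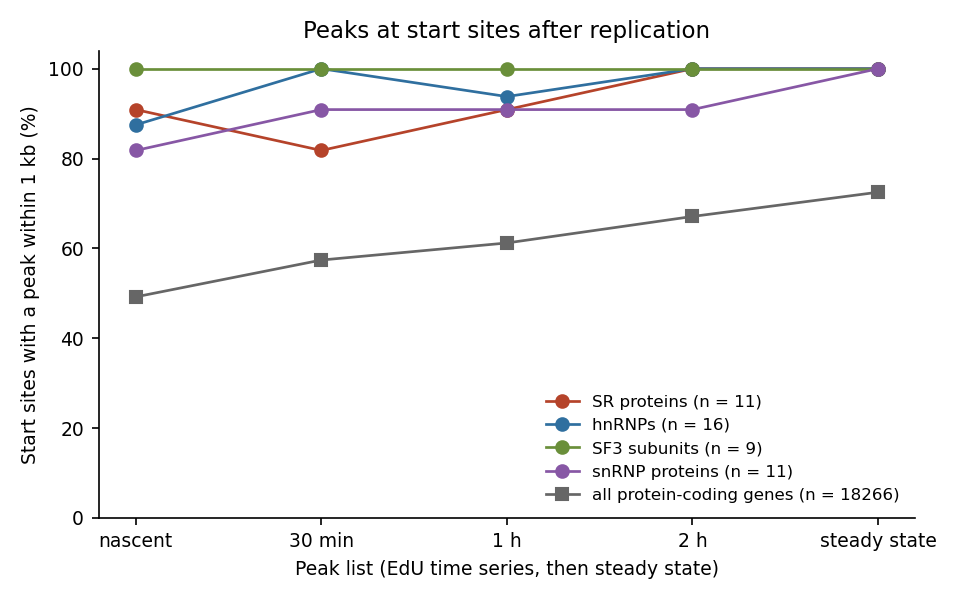
Percent of genes with an accessibility peak within 1000 bp of the TSS in each deposited list, from nascent chromatin to steady state, for the 4 role groups of splicing genes and for all coding genes. All 9 SF3 genes have a peak in the nascent list, and each role group lies above all coding genes in each list.

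Without a drug, accessibility at these genes was low just behind the fork and higher after 2 h. The median member had 6.5 ± 0.337 RPM at 2 h and 2.86 ± 0.326 RPM in nascent DMSO libraries (SD of library medians, n = 3 each). Of the 47 genes, 32 rose and none fell (limma on log2(RPM + 1), Benjamini-Hochberg adjusted p under 0.05 over all TSSs), where 43.1% of coding genes rose. All 47 differences were above 0, with a median of 1.04 against 0.70 for all coding genes and 0.34 for all TSSs. The rise was called for 14 of 16 hnRNP genes, 6 of 11 SR, 5 of 9 SF3 and 7 of 11 snRNP genes. With every library centred on its median TSS the count was 15. Where an S5P peak was present, 66.7% of the splicing genes and 64.8% of coding genes rose, with medians of 0.97 and 1.02, so the share was close to that of other genes with the polymerase mark.

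On this scale a low gene moves less than a high one with the same ratio, and the splicing genes lie above most coding genes: their mean was 1.58 times the coding mean in 2 h DMSO libraries and 1.55 times in nascent DMSO. The medians of the members and of all coding genes are therefore not matched for level.

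Hnrnpul2, a relative of the nuclear scaffold protein hnRNP U, had 19.3, 23 and 23 RPM in the 2 h DMSO libraries and 3.46, 5.05 and 3.7 RPM in the nascent ones. All its 2 h libraries stand far above all its nascent libraries (log2 difference 2.18, SE 0.29, adjusted p = 3.9e-10). Its window is shared with the divergent gene Ttc9c, whose start is 68 bp away. Hnrnpc, which binds uridine tracts and packages nuclear transcripts, had 22.7, 29.1 and 20.7 RPM at 2 h, against 4.61, 7.07 and 6.61 RPM in nascent libraries (difference 1.83, SE 0.28, adjusted p = 3.59e-08). Its groups did not overlap either, and it had the highest 2 h mean of the 47 genes. Hnrnpll, a paralogue of hnRNP L, and Hnrnpr each rose by 1.56.

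Among the snRNP genes, Snrpd2, an Sm ring protein, had 11.3, 11.2 and 12.7 RPM at 2 h and 1.73, 3.53 and 3.17 RPM in nascent libraries. The lowest 2 h library was above the highest nascent one by a wide margin (difference 1.77, SE 0.30, adjusted p = 8.74e-07). Snrpa, the protein A of the U1 snRNP, averaged 14.7 RPM at 2 h and 4.07 RPM in nascent DNA (difference 1.63), and Snrpd1, another Sm protein, rose by 1.28.

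Sf3b4, a subunit that touches the transcript near the branch point, had 6.74, 5.75 and 8.57 RPM at 2 h and 2.31, 0.505 and 1.59 RPM in nascent libraries. It led the SF3 genes (difference 1.76, SE 0.35, adjusted p = 1.53e-05), ahead of Sf3b2 at 1.54. Srsf6 led the SR genes, at a mean of 7.49 RPM at 2 h and 2.16 RPM nascent (difference 1.44, adjusted p = 9.42e-05). Srsf1, the founding SR protein, rose by 1.04, with 7.29 RPM at 2 h and 3.03 RPM nascent. Hnrnpa2b1, an hnRNP that also binds microRNAs, rose by 1.28, with 11.2 RPM at 2 h and 4.07 RPM nascent.

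Some of the best known splicing genes did not pass. Hnrnpa1, the classic splicing silencer, differed by 0.59 (adjusted p = 0.126), Sf3b1, which holds the branch point, by 0.36, and Hnrnpk, which binds C-rich RNA, by 0.14. The window used for Hnrnpk is not its strongest, which lies 1000 bp into the gene. There it had 5.82, 7.91 and 6.64 RPM in 2 h and 3.46, 3.53 and 3.44 RPM in nascent DMSO EdU libraries. These groups do not overlap, and that difference was not tested. The smallest differences were those of Snrpb (0.03), Srsf9 (0.03) and Srsf4 (0.10). Srsf3, the smallest SR protein, passed narrowly (0.73, adjusted p = 0.049) and was called in only 2 of the 6 fits that leave out a library. Of genes outside the families, 36 of 56 other spliceosome genes and 31 of 48 other splicing regulators rose, led by Cwc15 (2.34), Nono (2.13), Snrnp25 (1.99) and Dhx38 (1.98).

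**Figure D2:**
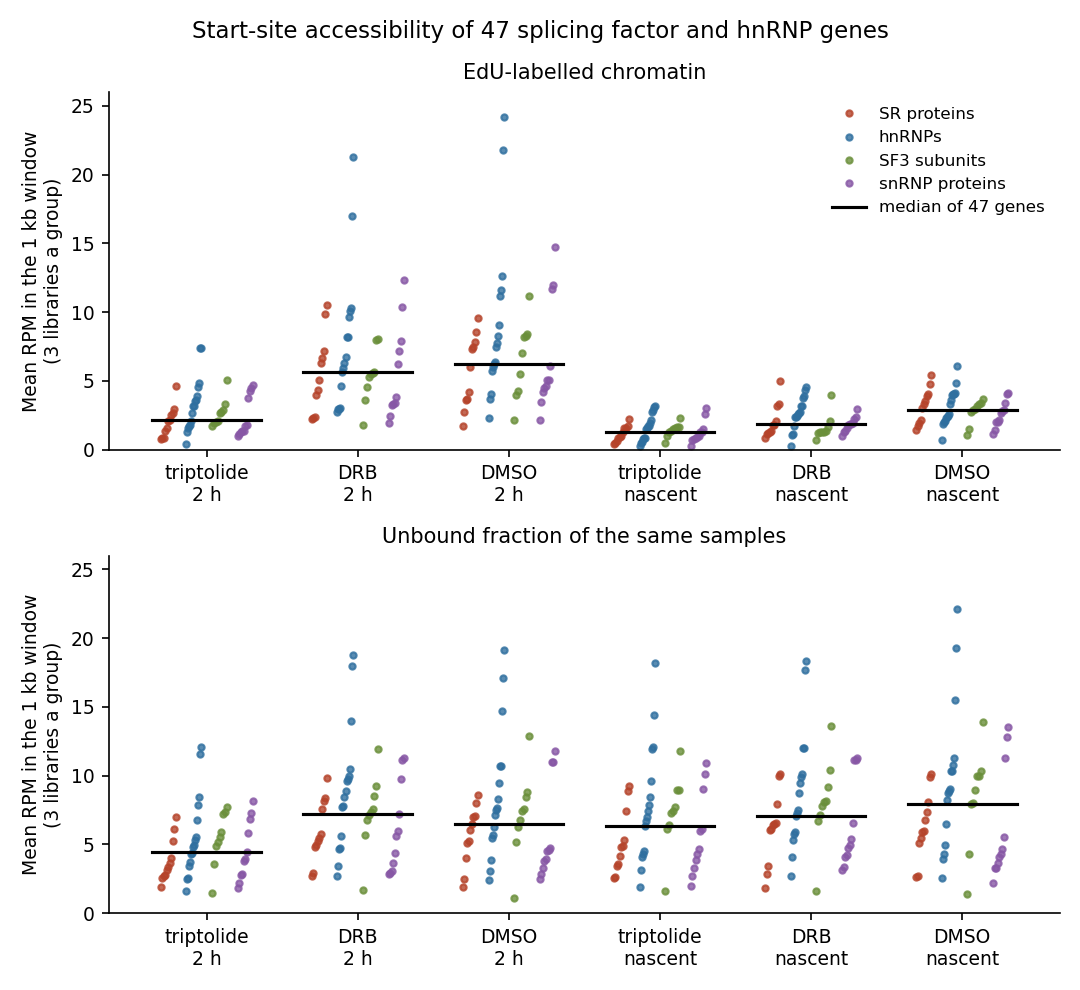
Mean RPM of each of the 47 genes in the 12 groups of the inhibitor experiment (points, n = 3 libraries per mean), with EdU libraries above and unbound libraries below, and the median over genes as a black line. The EdU medians run lowest with triptolide at both times, at 2.3 RPM at 2 h and 1.22 RPM nascent, and unbound medians lie closer together.

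The comparison of EdU with unbound DNA asks how new chromatin differs from the rest of the same samples. On nascent DMSO DNA, 34 of the 47 genes were lower in the EdU than in the unbound libraries and none higher, where 59.1% of coding genes were lower. The median difference was -1.10, and -0.88 for coding genes. Among S5P-marked genes, 75% of the splicing genes and 85.1% of coding genes were lower, with medians of -1.08 and -1.19. Sf3b4 averaged 1.47 RPM in EdU and 10 RPM in unbound libraries (difference -2.22, adjusted p = 2.21e-09). Hnrnpul2 stood at -2.20, Snrpd2 at -1.96 and Hnrnpr at -1.94. Sf3b1 (-1.25), Hnrnpa2b1 (-1.22), Snrpd1 (-1.14), Hnrnpa1 (-0.97) and Srsf1 (-0.78) were also lower. Srsf3 (-0.52) and Hnrnpk (-0.27, outside its strongest window) were not called. The genes with the smallest gap were Snrpb (-0.12) and Snrpa1 (-0.13). After 2 h in DMSO, limma called no splicing gene different between the fractions, with 2 at an unadjusted p under 0.05, none by voom, and a median difference of 0.06. It also called 0 of all TSSs, with 1733 at an unadjusted p under 0.05.

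The spike-in experiment measured 5 kb TSS regions in 2 libraries per time, in the authors' log2 values. No source used here says how the S2 reads enter these values. Of the 47 genes, 17 were called higher at 2 h and none lower, where 39.0% of coding genes were called higher. The median difference was 1.19, against 1.08 for coding genes. In the S5P-marked set, 41.7% of the splicing genes and 60.3% of coding genes were called, with medians of 1.25 and 1.40. These 17 were 11 hnRNP, 3 SR, 2 SF3 genes and 1 snRNP gene.

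Hnrnpc had values of 364.2 and 348.8 at 2 h and 55.71 and 107 in nascent libraries on a linear scale (log2 difference 2.19, SE 0.56, adjusted p = 0.00153). Hnrnpa2b1 had 213.8 and 207.4 at 2 h, against 44.79 and 56.91 in nascent libraries (difference 2.04, adjusted p = 0.00181). For both genes the 2 h libraries lie close together and above the nascent ones. Sf3b5 (1.89), Snrpa (1.79), Srsf11 (1.79), Sf3b2 (1.75) and Hnrnpul2 (1.70) followed, and Srsf9 (0.13) and Snrpd1 (0.42) moved least. Leaving out either 2 h library took the count to 0, and leaving out nascent replicate 1 or replicate 2 took it to 35 or 45. Nascent replicate 2 lay above nascent replicate 1 at every member except Snrpa1. For Hnrnpa0 the values were 95.62 in replicate 2 and 48.07 in replicate 1. The part of this gap in the calls was not tested.

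Triptolide lowered accessibility on new DNA at many of these genes by the end of the chase. The median member had 2.3 ± 0.248 RPM with triptolide and 6.5 ± 0.337 RPM with DMSO in the 2 h EdU libraries (SD, n = 3 each). Of the 47 genes, 35 fell and none rose, where 39.8% of coding genes fell. Differences were below 0 for 46 of 47, with a median of -1.24, against -0.62 for coding genes and -0.29 for all TSSs. Of the 36 genes with an S5P peak 29 fell (80.6%), where 66.3% of coding genes with such a peak did, with medians of -1.27 and -1.08. Of the 11 without it, 6 fell. With every library centred on its median TSS the count of genes that fell was 22.

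Among hnRNP genes, Hnrnpa2b1 had 0.864, 2.79 and 1.59 RPM with triptolide, 8.74, 4.48 and 11.3 RPM with DRB, and 10.7, 11.2 and 11.6 RPM with DMSO. Its triptolide libraries were the lowest without overlap (triptolide against DMSO -2.20, SE 0.31, adjusted p = 4.1e-09). Its window, chr6:51469501-51470500, also covers the start of the divergent gene Cbx3, 466 bp away. Hnrnpc had 7.78, 4.34 and 10.1 RPM with triptolide, 20.1, 22.8 and 21.2 RPM with DRB, and 22.7, 29.1 and 20.7 RPM with DMSO (difference -1.63, SE 0.28, adjusted p = 7.2e-07). Its triptolide libraries stood apart below both other sets, which overlapped each other. Hnrnpa0, which binds AU-rich elements, averaged 1.25 RPM with triptolide and 6.24 RPM with DMSO (-1.64), and Hnrnpdl fell by 1.61.

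Hnrnpa1 had 2.88, 4.04 and 3.99 RPM with triptolide, 10.5, 10.4 and 8.12 RPM with DRB, and 9.81, 7.55 and 5.81 RPM with DMSO (triptolide against DMSO -0.90, SE 0.30, adjusted p = 0.0138). The triptolide libraries lay below the others, and the call was kept in 4 of the 6 fits that leave out a library. Hnrnpk had 0.576, 0.31 and 0.266 RPM with triptolide and 3.06, 2.16 and 1.66 RPM with DMSO. All its values are low and the groups do not overlap (-1.24). Hnrnpd, which marks AU-rich messages for decay, was called at -0.83 but in 0 of the 6 fits that leave out a library. Hnrnpl, which binds CA repeats, differed by -0.29 and Hnrnpf by -0.38, and neither was called.

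Among SR genes, Srsf5 had 0.864, 0.931 and 0.798 RPM with triptolide, 7.43, 4.11 and 3.77 RPM with DRB, and 5.21, 5.39 and 7.47 RPM with DMSO. The triptolide libraries were tightly grouped at the bottom (-1.90, SE 0.34, adjusted p = 2.52e-06). Srsf2, a protein of nuclear speckles, had 0.864, 1.24 and 0.532 RPM with triptolide, 8.74, 5.22 and 6.09 RPM with DRB, and 4.9, 4.32 and 3.32 RPM with DMSO (triptolide against DMSO -1.47). Here the libraries order as DRB above DMSO above triptolide without overlap. Srsf1 had 1.44, 2.17 and 2.92 RPM with triptolide, 2.19, 5.97 and 4.93 RPM with DRB, and 6.74, 6.83 and 8.3 RPM with DMSO (-1.40). Srsf3 had 1.73, 2.79 and 3.46 RPM with triptolide and 6.74, 8.99 and 9.96 RPM with DMSO (-1.40, adjusted p = 8.68e-05).

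In both genes each triptolide library lay below each DMSO library, and one DRB library of Srsf1 fell among the triptolide ones. Srsf9 was the one gene with a positive difference (0.23, not called), with 2.3, 1.86 and 2.13 RPM with triptolide and 1.23, 2.88 and 1.11 RPM with DMSO. Srsf12 differed by -0.68 and Srsf10, which represses splicing when dephosphorylated, by -0.84, and neither was called.

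The SF3 genes split. Sf3a3 had 1.44, 2.79 and 2.13 RPM with triptolide and 9.2, 7.19 and 8.85 RPM with DMSO (-1.61), Sf3b2 averaged 3.35 RPM with triptolide and 11.2 RPM with DMSO (-1.57), and Sf3b4 averaged 1.96 RPM with triptolide and 7.02 RPM with DMSO (-1.48). Sf3b1 was not called (-0.31, adjusted p = 0.552), with 2.59, 3.41 and 2.66 RPM with triptolide, 3.5, 5.22 and 4.93 RPM with DRB, and 5.82, 2.52 and 3.6 RPM with DMSO. The triptolide libraries of Sf3b1 overlap the DMSO ones. Sf3b6, which contacts the branch point adenosine, had 4.9, 5.28 and 5.05 RPM with triptolide and 7.66, 4.68 and 4.15 RPM with DMSO (-0.06), and Sf3b3 differed by -0.22.

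In the snRNP genes, Snrpa had 4.61, 4.34 and 4.52 RPM with triptolide and 14.7, 16.9 and 12.4 RPM with DMSO (-1.50, SE 0.30, adjusted p = 2.01e-05). Its triptolide libraries were nearly equal and far below DMSO. Snrpa1, the A-prime protein of the U2 snRNP, averaged 1.01 RPM with triptolide and 4.49 RPM with DMSO (-1.47), and Snrpg fell by 1.37 and Snrpe by 1.31. Snrpd1 had 1.44, 1.24 and 1.06 RPM with triptolide and 5.21, 2.88 and 4.42 RPM with DMSO (-1.18). Snrpb2, a U2 snRNP protein (-0.36), and Snrpb (-0.43) were not called.

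Outside the families, 35 of 56 other spliceosome genes fell and 1, Rbm17, rose (1.04). Of the other regulators 29 of 48 fell, with Khsrp at -2.39, Tial1 at -2.30 and Clk2 at -2.21. Sf1 (-2.26) led the spliceosome genes.

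**Figure D3:**
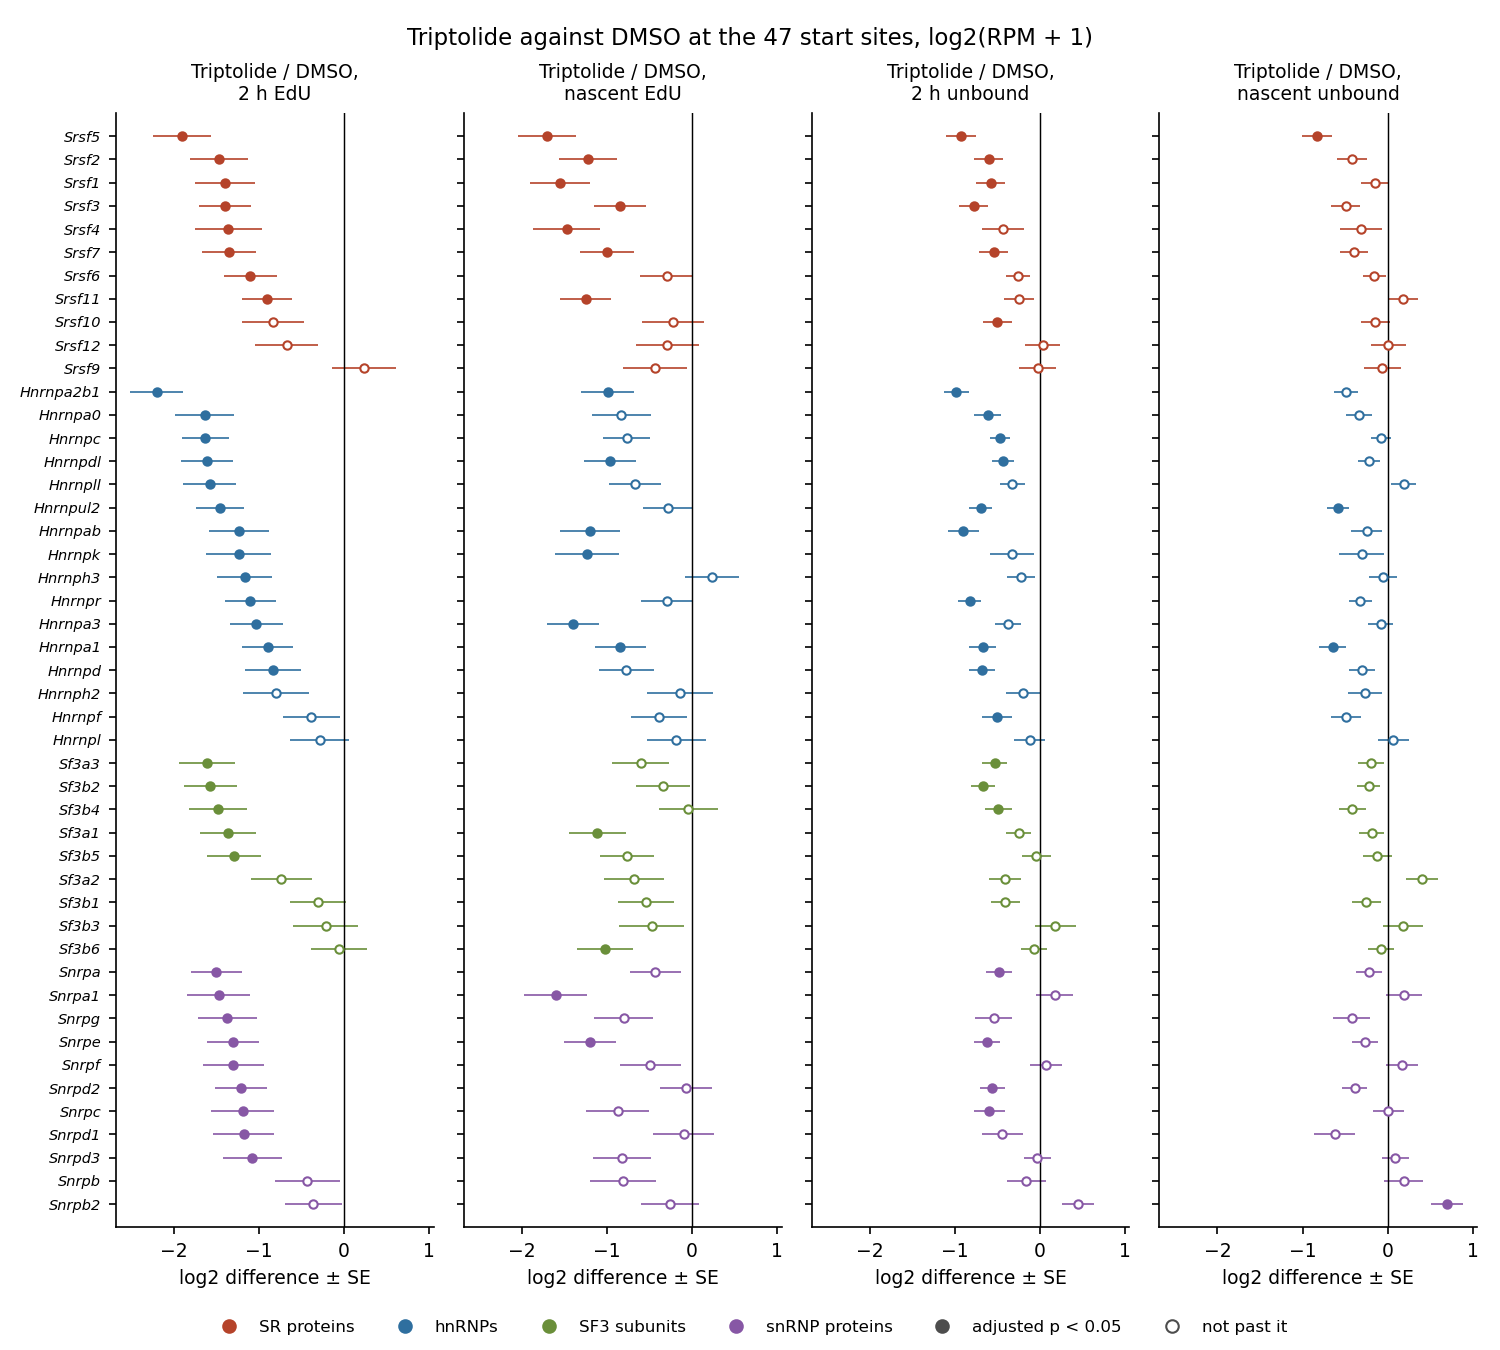
Log2 difference between triptolide and DMSO (log2(RPM + 1), ± SE) of each of the 47 genes in 4 panels: 2 h EdU, nascent EdU, 2 h unbound and nascent unbound, with filled points for adjusted p under 0.05. Nearly all EdU points lie left of 0, with 35 called at 2 h and 17 on nascent DNA, and the unbound differences are smaller, with 23 and 4 called.

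The same comparison on nascent DNA gave fewer calls at lower depth. The median member had 1.22 ± 0.161 RPM with triptolide and 2.86 ± 0.326 RPM with DMSO (SD, n = 3 each). Of the 47 genes 17 fell and none rose, where 16.2% of coding genes fell. The difference was below 0 for 46 of 47, with a median of -0.77, against -0.37 for coding genes and -0.23 for all TSSs. The 17 were 7 of 11 SR genes, 6 of 16 hnRNP, 2 of 9 SF3 and 2 of 11 snRNP genes. Of genes with an S5P peak 16 of 36 splicing genes fell (44.4%), where 31.2% of coding genes with such a peak did, with medians of -0.82 and -0.69. Of the 11 without it 1 fell. The count was 7 with every library centred on its median TSS, 11 without DMSO replicate 3 and 9 without triptolide replicate 1.

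Srsf5 led, with 1.39, 0 and 0.54 RPM with triptolide, 0.946, 2.31 and 2.12 RPM with DRB, and 4.61, 4.04 and 3.44 RPM with DMSO. The groups order as DMSO above triptolide without overlap (-1.70, SE 0.34, adjusted p = 0.000179). Srsf1 had 0.696, 0 and 0.54 RPM with triptolide, 0.946, 0 and 1.51 RPM with DRB, and 2.88, 3.03 and 3.17 RPM with DMSO (-1.55, SE 0.35, adjusted p = 0.000874). Its DMSO libraries were close together and above every library with an inhibitor. Srsf11 (-1.25) and Srsf2 (-1.22) followed, and Srsf3 passed narrowly (-0.85, adjusted p = 0.0489), in 1 of the 6 fits that leave out a library.

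Snrpa1 had 0, 0.453 and 0.36 RPM with triptolide and 4.04, 2.02 and 2.65 RPM with DMSO (-1.60, SE 0.37, adjusted p = 0.0012). Hnrnpa3 had 0.348, 1.36 and 0.9 RPM with triptolide and 4.04, 2.52 and 5.29 RPM with DMSO (-1.40, SE 0.31, adjusted p = 0.000652). Neither gene's groups overlapped. Hnrnpk fell by 1.23, Hnrnpa2b1 by 0.99 and Hnrnpa1 by 0.84, the last in 1 of the 6 fits that leave out a library. Snrpe fell by 1.20, Sf3a1 by 1.11 and Sf3b6 by 1.02. The calls of Hnrnpa2b1, Sf3a1 and Sf3b6 were each kept in 3 of these 6 fits and that of Hnrnpk in 4.

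Sf3b6 is thus called on nascent DNA and not at 2 h, where it differed by -0.06. The direct test of that change, the 2 h difference minus the nascent one, gave 0.96 (SE 0.46, unadjusted p = 0.0393, adjusted p = 0.416). Not called were Hnrnpc (-0.77, adjusted p = 0.0517) and Sf3b1 (-0.54, adjusted p = 0.312). Sf3b4 (-0.04), Snrpd2 (-0.07), Snrpd1 (-0.10), Hnrnph2 (-0.14), Hnrnpl (-0.18), Srsf10 (-0.22) and Srsf12 (-0.29) had small differences, and Hnrnph3 (0.23) alone was above 0. Of the other spliceosome genes 14 of 56 fell, and of the other regulators 18 of 48, with Taf15 at -1.95, Khsrp at -1.92, Son at -1.70 and Tardbp at -1.63.

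**Figure D4:**
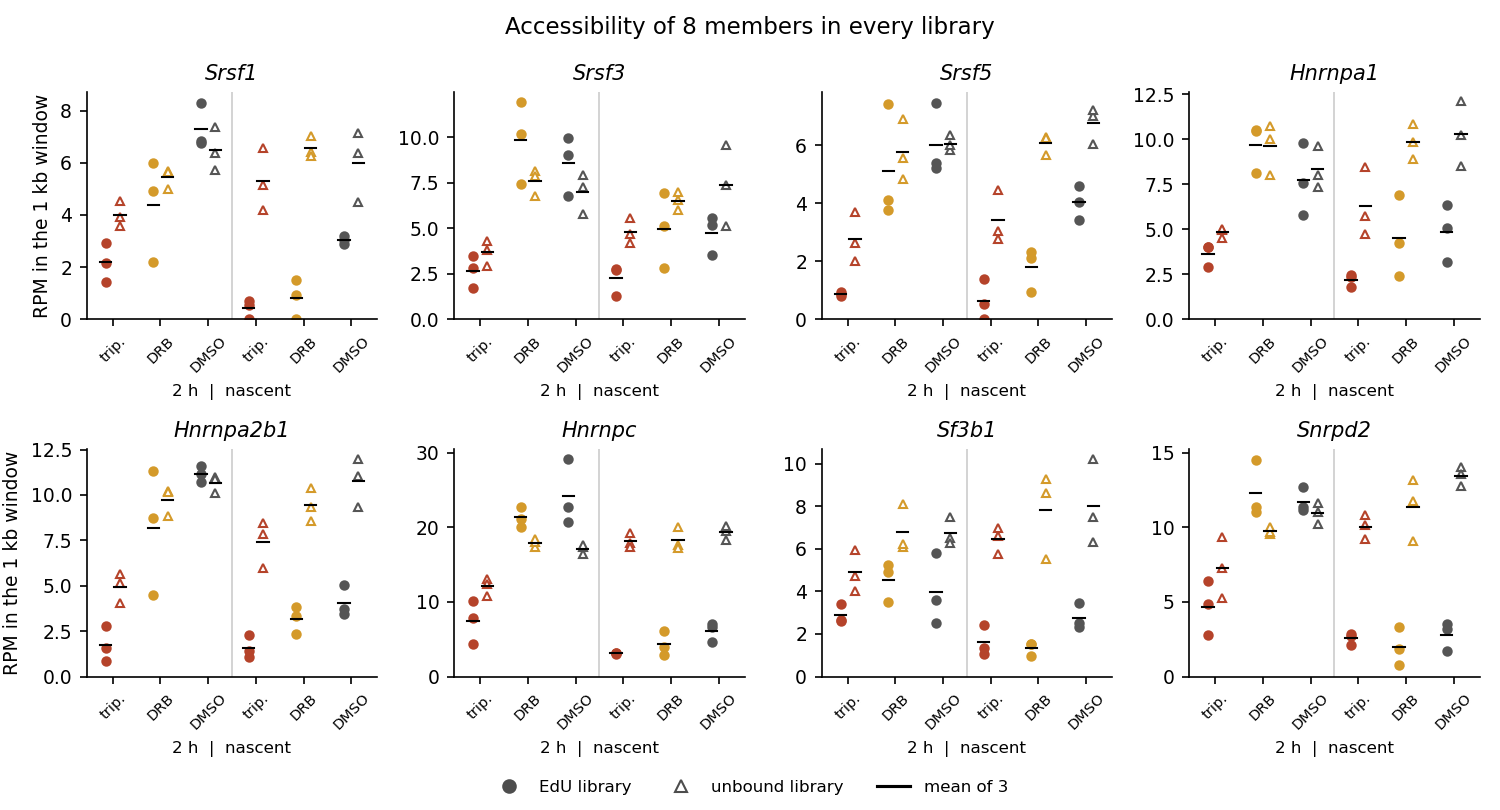
RPM of 8 genes (Srsf1, Srsf3, Srsf5, Hnrnpa1, Hnrnpa2b1, Hnrnpc, Sf3b1 and Snrpd2) in every library of the inhibitor experiment, by group. In the 2 h EdU libraries the 3 triptolide points of Hnrnpc (4.34 to 10.1 RPM) lie below its DRB and DMSO points, and those of Sf3b1 overlap DMSO.

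DRB left smaller differences at the start sites. On nascent EdU DNA, 1 of the 47 genes fell and none rose, where 4.51% of coding genes fell. The median difference was -0.37, against -0.26 for coding genes, 38 of 47 were below 0, and 13 had an unadjusted p under 0.05. Over all TSSs 5753 of 29799 had such a p. The gene called was Srsf1, at 0.819 RPM with DRB and 3.03 RPM with DMSO (-1.25, SE 0.35, adjusted p = 0.0242), in 2 of the 6 fits that leave out a library. The count was 0 without any one of the 3 DMSO libraries, 2 without DRB replicate 1 and 4 without DRB replicate 3. Snrpg (-1.04) and Sf3a3 (-0.96) did not pass. Hnrnpa2b1 differed by -0.28, with an interval from -0.89 to 0.33, and Srsf3 by 0.01, with an interval from -0.58 to 0.60. Sf3b1 (-0.69), Hnrnpk (-0.55), Hnrnpa1 (-0.13) and Snrpd1 (0.36) were not called either. With an S5P peak, 2.78% of the splicing genes and 7.62% of coding genes fell.

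At 2 h limma called none of the 47 genes different between DRB and DMSO, with 4 at an unadjusted p under 0.05, and 1 called by voom on the recovered reads. Over all TSSs 3816 of 29799 had an unadjusted p under 0.05. Of coding genes 0.798% were called lower. The median difference was -0.16. Intervals for single genes stayed wide: -0.70 to 0.38 for Hnrnpc, -1.10 to 0.13 for Hnrnpa2b1 and -0.91 to 0.43 for Srsf5. The lowest were Snrpa1 (-0.93), Hnrnpll (-0.90) and Hnrnpa0 (-0.81), and the highest Srsf2 (0.56). Srsf1 differed by -0.70, Snrpd1 by -0.25, Srsf3 by 0.17, Sf3b1 by 0.20, Hnrnpk by 0.20 and Hnrnpa1 by 0.31.

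Set directly against each other, triptolide gave lower values than DRB at 23 of the 47 genes in 2 h EdU libraries and higher values at none, where 20.8% of coding genes were lower. The median difference was -0.93. Where an S5P peak was present, 52.8% of the splicing genes and 39.9% of coding genes were lower. The count was 15 without DRB replicate 3, 13 with libraries centred on their median TSS and 35 with libraries scaled to background. Srsf2 averaged 0.879 RPM with triptolide and 6.68 RPM with DRB (-2.02, adjusted p = 4.4e-06), and Hnrnpdl 2.1 RPM with triptolide and 10.1 RPM with DRB (-1.86). Hnrnpa2b1 stood at -1.72, Srsf5 at -1.66, Srsf3 at -1.57, Hnrnpc at -1.47, Snrpg at -1.39, Sf3b5 at -1.22 and Sf3b2 at -1.11. On nascent DNA limma called 0 of the 47, with 14 at an unadjusted p under 0.05, a median of -0.29 and 0.809% of coding genes called lower. It called 3 without DRB replicate 1 and 1 without triptolide replicate 3, and voom on the recovered reads called 0.

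Gain between nascent and 2 h DNA was also measured within each inhibitor. With triptolide 12 of the 47 genes rose and none fell, where 19.1% of coding genes rose, with a median difference of 0.61. The count was 7 without the 2 h replicate 3, 6 without the nascent replicate 1, 3 with libraries centred on their median TSS and 26 with libraries scaled to background. They were led by Hnrnpa3 (1.42, 3.9 RPM at 2 h and 0.869 RPM nascent), Sf3b6 (1.41), Hnrnpd (1.25), Snrpe (1.24) and Srsf1 (1.18), while Hnrnpa2b1 differed by 0.06. With DRB 35 rose and none fell, where 47.7% of coding genes rose, with a median of 1.12. Among S5P-marked genes, 25% of the splicing genes and 28.5% of coding genes rose with triptolide, and 77.8% and 72.5% with DRB. Snrpd2 averaged 12.3 RPM at 2 h and 1.96 RPM nascent (2.25), and Hnrnpc 21.3 RPM at 2 h and 4.31 RPM nascent (2.12), with Snrpa1 alone below 0 (-0.14).

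The difference between these gains was tested itself. For triptolide minus DMSO the median was -0.32 and limma called none of the 47, nor did voom, with 12 at an unadjusted p under 0.05, where 0.522% of coding genes were lower. Sf3b4 (-1.44, SE 0.49, adjusted p = 0.166), Hnrnph3 (-1.40), Sf3b2 (-1.23) and Hnrnpa2b1 (-1.22, with an interval from -2.08 to -0.35) were lowest. For DRB minus DMSO the median was 0.17, none was called by limma or voom, and 3 had an unadjusted p under 0.05, where 0.0115% of coding genes were higher. Srsf2 was the highest of these, at 1.50 (adjusted p = 0.35).

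In the unbound DNA the changes were smaller. At 2 h with triptolide 23 of the 47 genes fell and none rose, where 16.3% of coding genes fell, with a median of -0.44, against -0.12 for coding genes. In the S5P-marked set, 50% of the splicing genes and 29.6% of coding genes fell. Hnrnpa2b1 had 5.64, 4.03 and 5.17 RPM with triptolide, 8.84, 10.2 and 10.2 RPM with DRB, and 11, 10.1 and 10.9 RPM with DMSO. The triptolide libraries stand below the rest without overlap (-0.98, SE 0.15, adjusted p = 2.51e-06). Srsf5 had 3.68, 2.02 and 2.62 RPM with triptolide and 5.83, 6 and 6.35 RPM with DMSO (-0.93), Hnrnpab fell by 0.90, Hnrnpr by 0.83, Srsf3 by 0.78, Hnrnpa1 by 0.67 and Srsf1 by 0.58. Snrpd1 (-0.44), Sf3b1 (-0.40) and Hnrnpk (-0.33) were not called. Of the other spliceosome genes 17 of 56 fell, and 20 of 48 other regulators. Without the 2 h unbound DMSO replicate 1 the count of splicing genes was 15.

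On unbound nascent samples 3 genes fell with triptolide, where 1.73% of coding genes fell, and 1 rose, where 0.771% rose. The count of genes that fell was 5 without DMSO replicate 2 and 1 without triptolide replicate 1. Srsf5 had 3.03, 4.45 and 2.79 RPM with triptolide and 7.03, 7.23 and 6.06 RPM with DMSO (-0.83, SE 0.17, adjusted p = 0.00299), and it was called in all 6 fits that leave out a library. Hnrnpa1 fell by 0.65 (3 of 6 such fits) and Hnrnpul2 by 0.58 (5 of 6). Snrpb2 went the other way: it had 3.84, 7.73 and 6.75 RPM with triptolide, 6.74, 7.16 and 5.74 RPM with DRB, and 3.74, 3.83 and 2.37 RPM with DMSO. Every DRB library was above every DMSO library. The lowest triptolide library was all but level with DMSO replicate 2, at 3.84 against 3.83 RPM, the latter from 9 reads. By limma the difference was 0.69 for triptolide (adjusted p = 0.033) and 0.82 for DRB (adjusted p = 0.0175). Each call held in 3 of the 6 fits that leave out a library. The triptolide call of Snrpb2 was lost with libraries centred on their median TSS or scaled to background, and with no filter on low values.

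DRB called no other splicing gene in unbound nascent samples, where 0.176% of coding genes rose. In the 2 h unbound libraries Snrpb2 had 6.59, 8.85 and 6.23 RPM with DRB and 4.4, 3.36 and 4.15 RPM with DMSO (0.72, adjusted p = 0.0347, kept in 1 of 6 such fits). It was again the one gene called with DRB there, where 0.703% of coding genes rose.

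The triptolide difference in EdU libraries minus that in unbound libraries was tested itself, a contrast chosen after seeing the data. It was lower at 11 of the 47 genes at 2 h, where 18.3% of coding genes were lower, and at 4 on nascent DNA, where 9.92% were. With an S5P peak, 27.8% of the splicing genes and 32.1% of coding genes were lower at 2 h, and 11.1% and 17.8% on nascent DNA, so the splicing genes do not stand out here. The medians were -0.80 at 2 h and -0.60 on nascent DNA, and Snrpa1 was called at both times.

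The profile over 5 kb on either side of the start placed the signal. At the TSS the mean over the 47 genes in 2 h EdU libraries was 2.7 RPM with triptolide, 6.31 with DRB and 7.31 with DMSO, and in nascent EdU libraries it was 1.41 RPM with triptolide, 2.13 with DRB and 2.96 with DMSO. Within 1000 bp, the strongest window lay at the TSS for 26 genes, 500 bp into the gene for 11, 500 bp before it for 7, 1000 bp into the gene for 2 and 1000 bp before it for 1. Inside the gene the DRB curve crossed above DMSO in unbound libraries and in 2 h EdU libraries, where 1000 bp in it had 3.2 RPM with DRB and 2.27 RPM with DMSO. In nascent EdU libraries it stayed below, at 1.39 RPM with DRB and 1.82 RPM with DMSO. In the window 1000 bp into the gene, the mean over the members in 2 h unbound libraries was 2.45 RPM with triptolide, 3.45 with DRB and 2.28 with DMSO, and in nascent unbound libraries 2.8 RPM with triptolide, 3.4 with DRB and 2.5 with DMSO. At 2 h the DRB libraries ranged from 3.43 to 3.47 RPM and the DMSO libraries from 2.01 to 2.59 RPM. In nascent samples the DRB libraries ranged from 3.15 to 3.87 RPM and the DMSO libraries from 2.4 to 2.7 RPM, so the groups did not overlap at either time. The mean over all coding genes did not overlap either. At 2 h it ranged from 1.82 to 2.01 RPM with DRB and from 1.57 to 1.71 RPM with DMSO. In nascent samples it ranged from 1.83 to 1.95 RPM with DRB and from 1.69 to 1.73 RPM with DMSO.

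**Figure D5:**
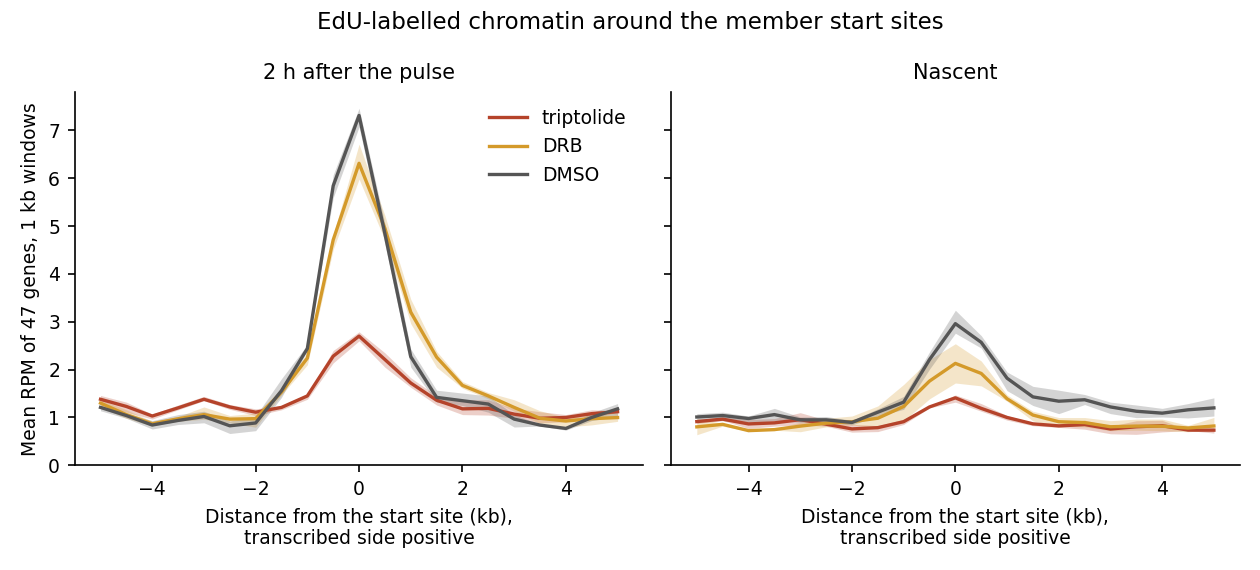
Mean RPM over the 47 genes in the EdU libraries, in 1 kb windows from 5 kb before to 5 kb after the TSS. Genes are turned to run left to right, with 2 h in the left panel and nascent in the right. Shading runs from the lowest to the highest of 3 libraries. At the TSS of 2 h EdU libraries triptolide (2.7 RPM) lies below DRB (6.31) and DMSO (7.31). In the same libraries, 1 kb into the gene, the DRB line (3.2 RPM) lies above DMSO (2.27 RPM).

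This window was chosen after the profile had been seen, and was then fitted across all genes. In 2 h unbound libraries 12 of the 47 genes were higher with DRB than with DMSO and none lower, where 5.58% of coding genes were higher. The median difference was 0.36, against 0.07 for coding genes, and 44 of 47 were above 0. Among genes with an S5P peak, 25% of the splicing genes and 12.3% of the coding genes were higher at 2 h, and 27.8% and 10% in nascent samples. In nascent unbound libraries 10 were higher and none lower, where 4.21% of coding genes were higher, with a median of 0.37, against 0.07. The count at 2 h was 4 without DMSO replicate 3, and the nascent count was 4 without DMSO replicate 2 or without DRB replicate 1, and 6 with libraries centred on their median TSS.

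Srsf7, an SR protein that also links messages to export, had 9.44, 9.96 and 10.1 RPM there with DRB and 4.79, 2.28 and 4.15 RPM with DMSO in 2 h unbound libraries (1.23, SE 0.17, adjusted p = 8.11e-07). In nascent unbound libraries it had 10.7, 7.03 and 9.27 RPM with DRB and 5.68, 5.53 and 3.85 RPM with DMSO (0.73, adjusted p = 0.0077). All its DRB libraries were above all its DMSO libraries at both times.

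Hnrnph3 had 4.34, 4.15 and 5.27 RPM with DRB and 1.68, 1.68 and 1.65 RPM with DMSO at 2 h (1.06), and Snrpb had 2.85, 2.9 and 2.68 RPM with DRB and 1.17, 0.841 and 0.548 RPM with DMSO (1.05). Both calls and that of Srsf7 were kept in 6 of 6 fits that leave out a library. Srsf2 had 6.59, 6.78 and 5.84 RPM with DRB and 3.5, 3 and 2.35 RPM with DMSO (0.92). Hnrnpab, Hnrnpr, Sf3b5, Snrpb, Snrpd2, Srsf2 and Srsf7 were called at both times. The share of coding genes called at both times is not given here. Among other regulators 19 of 48 were higher in this window at 2 h, led by Tra2b (1.22), Srrm1 (1.22), Ptbp1 (1.20) and Zranb2 (1.15), and among other spliceosome genes 7 of 56.

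In EdU libraries limma called none of the 47 in this window. At 2 h 12 had an unadjusted p under 0.05, voom called 1, the median was 0.35 and 38 were above 0, where 0.706% of coding genes were higher. On nascent DNA 7 had an unadjusted p under 0.05 and voom called 0, with a median of -0.16, where 0.0926% of coding genes were higher.

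Neighbouring genes limit what a window can be credited to. A divergent TSS lies within 1000 bp of 12 of the 47 splicing genes (25.5%), where 11% of coding genes have one, and in all 12 it belongs to a coding gene. They are Hnrnpa1 (with Cbx5), Hnrnpa2b1 (Cbx3), Hnrnpd (4930524J08Rik), Hnrnpdl (Enoph1), Hnrnph2 (Gla), Hnrnph3 (Pbld2), Hnrnpul2 (Ttc9c), Sf3a1 (Ccdc157), Snrpd2 (Qpctl), Snrpd3 (Gucd1), Srsf11 (Lrrc40) and Srsf7 (Gemin6). For Hnrnpk and Hnrnpl the TSS region used is the outermost end of the gene, and their strongest window lies further in, so their values may not stand for their main promoter. Hnrnpa1 had its strongest window 1000 bp before the TSS, on the side of Cbx5, at a mean of 14.5 RPM over the DMSO EdU libraries. The window used for Hnrnpa1 averaged 7.72 RPM in 2 h and 4.85 RPM in nascent DMSO EdU libraries.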

How the data were processed

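The series holds 65 samples in 24 groups. Per the submitters' processing notes, reads were trimmed with Trim Galore 0.4.2 and aligned to mm10 with Bowtie2 2.2.6.2. The inhibitor table was deposited as log2 values of RPM + 1 in 1 kb windows every 500 bp, and the spike-in table as log2 values over 5 kb TSS regions, per the file headers. Values of the inhibitor table came back as whole reads within 0.1 read, and voom on these reads served as an alternative, since the deposited unit is a log2 value and no count test was the main one. No source used here says how S2 reads entered the spike-in values. Peak lists hold positions only, 1 combined list per group.

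Each TSS was given the 1 kb window nearest to it. TSSs above 0 in at least 3 libraries (2 in the spike-in table) were fitted with limma 3.58.1 (trend) in R 4.3.3, EdU and unbound libraries each in 1 fit and all 36 together where fractions were compared. Adjusted p-values are Benjamini-Hochberg values over all TSSs within each of 24 comparisons, with a threshold of 0.05. All 47 members passed the filter. Counts of members at an unadjusted p are set beside those over all TSSs only where stated. Elsewhere they are no result about the members. For a member, the SE of a log2 difference had a median of 0.334 (EdU libraries), 0.171 (unbound) or 0.53 (spike-in regions), and intervals are 1.96 SE on either side. The scripts were tested on simulated data.

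Genes named by rule were Srsf1, Srsf3, Hnrnpa1, Hnrnpa2b1, Hnrnpk, Sf3b1 and Snrpd1, whose values are not repeated in the shorter comparisons, with up to 4 called members per role group of largest difference and no overlap, and those of smallest difference; a few others were named after their values were seen. The members and lists were chosen with earlier results of these data known. Promoter sequences are those of RefSeq on GRCm38.p6. Alternatives were another pseudocount (0.5), no filter, centring on the median TSS, scaling to background, voom, a replicate block, a window of 3 kb, and leaving out each library. Python 3.11.15 with numpy 2.4.6, pandas 2.3.3 and matplotlib 3.10.9 was used.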

Additional observations from a re-analysis of the deposited data

Results flagged for a closer look

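The triptolide difference in EdU libraries was lower than that in unbound libraries at some splicing genes, by a test of the difference itself (limma over all 36 libraries, triptolide minus DMSO in EdU minus the same in unbound). This contrast was chosen after seeing the data. At 2 h 11 of the 47 genes were called, all lower, where 18.3% of coding genes were lower, with a median over the members of -0.80. Where an S5P peak was present, 27.8% of the splicing genes and 32.1% of coding genes were called, so this is no result about the splicing genes as a set. Snrpa1 stood at -1.65, Snrpf at -1.37, Hnrnpll at -1.26, Sf3b5 at -1.25, Hnrnpa2b1 at -1.22, Hnrnpdl at -1.18, Hnrnpc at -1.16, Sf3a1 at -1.11, Snrpd3 at -1.05, and Hnrnpa0 and Snrpa at -1.02 each. The count was 7 without DMSO EdU replicate 1 or triptolide EdU replicate 1, and 6 without DMSO unbound replicate 3 or triptolide unbound replicate 1.

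On nascent DNA 4 were called, all lower, where 9.92% of coding genes were lower, with a median of -0.60: Snrpa1 (-1.80), Srsf11 (-1.43), Srsf1 (-1.40) and Hnrnpa3 (-1.32). The count was 7 without DMSO EdU replicate 2 or triptolide EdU replicate 3. Among S5P-marked genes, 11.1% of the splicing genes and 17.8% of coding genes were called. Snrpa1 was called at both times. EdU libraries are shallower than unbound ones, and the part of depth in these differences was not tested.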

How the results depend on the processing

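Of the values of single genes under the alternatives, 6559 kept direction and side of the threshold, 314 lost the call, 72 gained it and 1 reversed: Srsf9 in the spike-in regions, at -0.69 with libraries centred on their median region. Centring, which takes away the shift of the median TSS, moved most counts: 2 h against nascent to 15 (DMSO), 22 (DRB) and 3 (triptolide); triptolide against DMSO to 22 (2 h EdU), 7 (nascent EdU) and 5 (nascent unbound); triptolide against DRB at 2 h to 13; DRB on nascent EdU to 0 and 1 kb into the gene in nascent unbound to 6; the triptolide difference between fractions to 3 (2 h) and 1 (nascent). Scaling to background gave 26 for 2 h against nascent with triptolide, 35 for triptolide against DRB at 2 h, 7 for the triptolide difference in gain, and 3 and 2 for DRB at 2 h and on nascent EdU. The 3 kb window, chosen after seeing the data, gave 20 for gain with triptolide, 1 and 2 for DRB at 2 h and nascent, 14 for the nascent difference between fractions and 4 for triptolide against DRB on nascent DNA, which was 2 with a pseudocount of 0.5. Voom gave 1 for DRB in 2 h EdU at the start and 1 further in, 0 on nascent EdU, and 5 for triptolide in nascent unbound. The cause was not tested.

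Leaving out each library gave 24 to 31 for 2 h against nascent with DMSO, 28 to 34 with DRB and 6 to 12 with triptolide; 29 to 35 for triptolide against DMSO at 2 h and 9 to 14 nascent, 15 to 24 and 1 to 5 in unbound; 15 to 22 for triptolide against DRB at 2 h and 0 to 3 nascent; 0 to 4 for DRB on nascent EdU; 32 to 34 for EdU against unbound; 6 to 13 and 3 to 7 for the triptolide difference between fractions at 2 h and nascent; 4 to 12 and 4 to 11 for DRB 1 kb into the gene in unbound at 2 h and nascent; and 0 to 45 in the spike-in regions. It gave 0 in each fit for DRB at 2 h in EdU libraries, at the start and 1 kb in, for DRB on nascent EdU 1 kb in, for both differences in gain (members lower) and for EdU against unbound at 2 h. For DRB in unbound libraries at the start no member was called lower in any fit, and Snrpb2, called higher, was kept in 3 of 6 fits nascent and 1 of 6 at 2 h.

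Replicate numbers did not meet the bar for pairing, a correlation over 0.1 in every same-numbered pair: deviations correlated at -0.023 to 0.054 in EdU libraries (0 of 45 pairs over 0.1) and at -0.019 to 0.166 in unbound libraries, where 12 of 45 were over 0.1, against 1 of 90 differently numbered pairs. Between EdU and unbound libraries of one sample name 3 of 18 were over 0.1, against 0 of 36, so some libraries with a shared number do deviate together. The main fits used group means only, so EdU and unbound libraries of one sample were not paired where the fractions were compared. With the replicate block the spike-in count was 0, that of triptolide on nascent EdU 18 and at 2 h 35, and the downstream counts 15 at 2 h and 12 nascent. Depth limits nascent EdU values most, where a median member had 3 to 12 reads.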

Other observations

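Other motifs were searched on both strands of the same 34 promoters. TCTCGCG stood in 11.8% of them, against 3.85% of all promoters, TGACGTC in 8.82%, against 4.21%, CACGTG in 11.8%, against 8.36%, and ACTACAA in 5.88%, against 4.07%. GCGCATG (2.94%, against 5.29%) and AAGATGG (2.94%, against 6.72%) were found less often in the splicing promoters than in all promoters. These shares rest on few matches and were not tested.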
